A study of Homo sapiens with 27 samples.

Results

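The 10 genes described here encode the transcription factor MYC, its dimerization partner MAX, and the proteins that pair with MAX or with the MAX-like protein MLX: MXD1, MXD3, MXD4, MXI1, MNT, MGA, MLX and MLXIP. They were taken by gene symbol from the deposited table of expression values, where all 10 were found among 26004 genes. Their RNA was measured by paired-end sequencing in 27 libraries of A2058, A375 and SKMEL2, 3 established lines of human melanoma, after knockdown of SIRT5, a mitochondrial sirtuin that takes acidic acyl groups off lysine side chains. In each line 3 libraries came from cells with the SIRT5 hairpin KD1, 3 from cells with the SIRT5 hairpin KD2, and 3 from control cells (NT) with a non-silencing hairpin against Gaussia luciferase. All cells, controls included, were transduced with a pLKO.1 lentivirus in polybrene, selected in puromycin at 1 µg/ml and lysed 96 h after transduction, so there is no untransduced group. A group's 3 libraries came from 3 wells of 1 line, so that p-values rest on the variation from well to well, which may be technical. The labels number the hairpins in another way, and the sources used here do not give which number is KD1.

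MYC and MAX bind DNA as a dimer at E-boxes, and MYC recruits coactivators to genes of ribosome production, metabolism and the cell cycle. The MXD proteins, MXI1 and MNT compete for MAX and bring the SIN3 and histone deacetylase corepressor to the same kind of site, while MGA ties MAX to a Polycomb complex. MLX is the partner of MLXIP, also called MondoA, which answers to phosphorylated sugars, and it also pairs with MXD1, MXD4 and MNT. In melanoma MYC is known for sustaining proliferation and for holding back senescence driven by oncogenes.

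The palindromic E-box CACGTG, which reads the same on both strands, is the site that MYC, the MXD proteins and the MLX dimers can all bind, so the promoters of the network's own genes were searched for it. RefSeq sequences (GRCh38.p14, 250 bases before to 50 after each start) were matched for 9 of the 10 genes, with 14 promoters, and the promoter of MYC was not used here. The motif was found in 3 of the 14 promoters, 1 each of MXD4, MNT and MLX, and in 7.26% of 35116 promoters over all genes. Counted by gene, 3 of 9 members had it, and 2396 of 27305 genes (8.77%). The 3 sites are shown because they place the network's own motif at its own members, with the E-box in capitals, from chr4:2262330-2262359 (minus strand), chr17:2401236-2401265 (minus strand) and chr17:42567038-42567067 (plus strand).
MXD4: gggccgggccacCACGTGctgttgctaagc
MNT: ccctgcccgggcCACGTGtgcgcgcgccgg
MLX: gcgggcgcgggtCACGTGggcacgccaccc
The first base of the motif lay 238 bases before the start of MXD4, 193 bases before that of MNT and 50 bases before that of MLX. MXD1 and MLXIP had no CACGTG in these windows. Their promoters are shown whole because these genes, with MYC, were called in the same direction with each hairpin in each line. In A2058 and SKMEL2 the MXD1 calls are a description only, for the reason given with the calls below. The first runs over chr2:69914859-69915158 and the second over chr12:122078506-122078805, both on the plus strand.
MXD1: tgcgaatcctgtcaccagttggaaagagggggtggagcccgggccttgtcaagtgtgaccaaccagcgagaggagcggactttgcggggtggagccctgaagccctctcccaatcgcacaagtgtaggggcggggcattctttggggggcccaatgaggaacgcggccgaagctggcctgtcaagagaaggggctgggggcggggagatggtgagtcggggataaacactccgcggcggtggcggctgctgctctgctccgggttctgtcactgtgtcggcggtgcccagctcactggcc
MLXIP: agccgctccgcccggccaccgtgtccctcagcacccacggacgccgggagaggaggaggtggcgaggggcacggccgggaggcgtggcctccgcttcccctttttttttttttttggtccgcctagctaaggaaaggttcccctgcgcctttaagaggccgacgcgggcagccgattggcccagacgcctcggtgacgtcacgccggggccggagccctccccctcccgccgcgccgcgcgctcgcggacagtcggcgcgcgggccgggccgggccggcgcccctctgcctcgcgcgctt
A match or its absence describes the letters of the window only.

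Levels are FPKM, fragments per kilobase of transcript, scaled between libraries by the authors, which can be compared between genes. The scaling follows the authors' normalisation of the base means and not the plain total of reads of each library. Differences were estimated with limma on log2(FPKM + 0.5), are given ± SE and run knockdown minus control, a scale on which low genes change by less than their FPKM ratio. Gene positions are those of GENCODE release 44 on GRCh38. A gene is called where limma's Benjamini-Hochberg adjusted p, taken over all genes tested, is under 0.05. The recovered reads assigned to genes numbered 29.3 M to 54.5 M per library for A2058, 7.10 M to 23.9 M for A375 and 20.2 M to 40.5 M for SKMEL2. SIRT5 itself was left at 3.89% to 20.04% of its control level in the 6 knockdown groups. The melanocyte lineage genes SOX10 (76.3 to 316 FPKM over all libraries) and S100B were present in each line, whereas the pigment genes TYR, DCT and TYRP1 had medians of 0.0241, 0.0108 and 0.0436 FPKM in A375. The leukocyte genes PTPRC and CD3E and the endothelial gene CDH5 stayed at or below 0.151 FPKM in every library, while among the other markers of foreign cell types KRT10, LYZ and LUM were expressed, with medians of 16.9 to 20.2, 4.55 to 13.3 and 0.734 to 8.96 FPKM over the lines. The keratinocyte gene KRT14 had medians of 2.06 FPKM in A375 (up to 6.13 FPKM), 1.54 FPKM in SKMEL2 and 0.0876 FPKM in A2058. In A375, KD2 replicates 1 and 2 stood apart: their shortest genes exceeded their longest by 0.68 and 0.61 (log2, medians of the outer length quartiles relative to control), against 0.15 in KD2 replicate 3, 0.0076 to 0.35 in KD1 and -0.15 to 0.14 in the controls. The same measure ran from -0.10 to 0.13 in the libraries of A2058 and SKMEL2. In bulk RNA, fewer cells of a kind and less RNA per cell cannot be told apart.

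Over the 3 lines MXD1 was higher in knockdown cells, and MYC, MXI1 and MLXIP were lower. MXD1 was higher by 1.39 ± 0.04 (adjusted p = 6.6e-17), MLXIP lower with -0.82 ± 0.04 (adjusted p = 5e-13), MXI1 lower with -0.77 ± 0.03 (adjusted p = 1.08e-14) and MYC lower with -0.66 ± 0.06 (adjusted p = 1.01e-09). The estimates of the other members were smaller, with MGA at -0.32, MXD3 at -0.30, MAX at -0.22, MNT at -0.16, MLX at 0.21 and MXD4 at 0.25. All 10 members were called over the lines, 3 higher and 7 lower, and this count is to be read against a background in which 64.1% of 16162 genes were called, 32% higher and 32% lower. Within A2058, 7 of 10 members were called (background 69.3%), within A375 7 of 10 (47.9%) and within SKMEL2 8 of 10 (65.3%). With single libraries left out, these counts were 6 to 7 in A2058, 5 to 7 in A375 and 7 to 8 in SKMEL2. Whether any of them exceeds the background was not tested. In the own fits of all 3 lines, MXD1 had the same call (higher, as 10.7% of the 10581 genes tested in each line), and so had MYC, MXI1 and MLXIP (lower, as 10.5%). KD1 against control called 7 of 10 members in A2058 (background 70.5%), 6 in A375 (46.5%) and 10 in SKMEL2 (67.6%), and KD2 against control called 6 (70.2%), 7 (43.4%) and 7 (63.2%). Both hairpins called 4 members in the same direction in A2058 (background 37%), 4 in A375 (22.2%) and 7 in SKMEL2 (33.4%). With each hairpin separately in each line, MXD1 was called higher (4.13% of genes) and MYC and MLXIP lower (2.58% of genes). In A2058 and SKMEL2 all control libraries had under 1 FPKM of MXD1. It entered those 2 fits through its knockdown libraries alone, so its calls there are a description only. The counts of members called in A2058 and SKMEL2 against control include MXD1. KD1 and KD2 are compared with the same control libraries, and an effect of the control hairpin would enter both and cannot be told apart from theirs. The share of all genes whose knockdown libraries lie outside the range of their controls is not given here. Such gaps, where stated for a member, describe that member only.

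**Figure D1:**
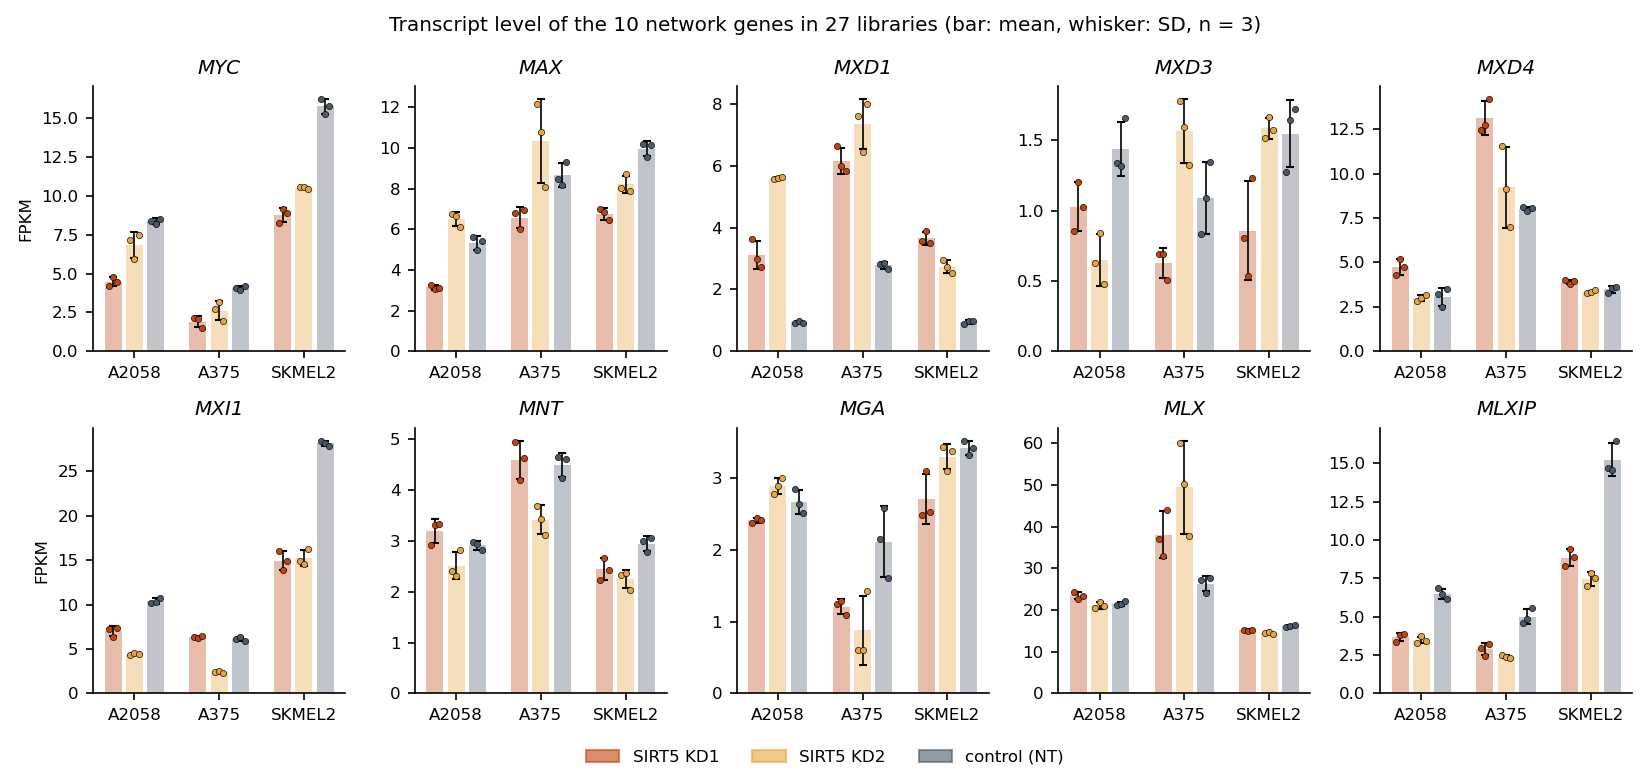
FPKM of the 10 network genes in each of the 27 libraries (points), with the mean (bar) and SD (whisker) of the 3 libraries of KD1, KD2 and control (NT) in A2058, A375 and SKMEL2, each panel with its own axis from 0. Within each line every knockdown library stands above the controls for MXD1 and below them for MYC and MLXIP.

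MYC (ENSG00000136997), the activator of the network, fell in each line. In A2058 MYC stood at 4.20, 4.78 and 4.44 FPKM in KD1 and at 7.14, 5.92 and 7.45 FPKM in KD2, against 8.40, 8.15 and 8.51 FPKM in the controls. In A375 MYC stood at 2.14, 2.06 and 1.51 FPKM in KD1 and at 2.71, 3.16 and 1.97 FPKM in KD2, against 4.06, 3.92 and 4.17 FPKM in the controls. In SKMEL2 MYC stood at 8.25, 9.15 and 8.88 FPKM in KD1 and at 10.5, 10.6 and 10.4 FPKM in KD2, against 16.2, 15.2 and 15.8 FPKM in the controls. No knockdown library of a line reached the lowest control library of that line. KD1 left 53.5% of control MYC in A2058, 47.0% in A375 and 55.6% in SKMEL2, and KD2 left 81.8%, 64.5% and 66.7% in the same order of lines. The KD1 differences were -0.83 ± 0.08 for A2058 (adjusted p = 4.96e-06), -0.93 ± 0.17 for A375 (adjusted p = 0.00154) and -0.81 ± 0.04 for SKMEL2 (adjusted p = 3.39e-07). The KD2 differences were smaller, -0.28 ± 0.08 for A2058 (adjusted p = 0.01), -0.57 ± 0.17 for A375 (adjusted p = 0.0239) and -0.56 ± 0.04 for SKMEL2 (adjusted p = 4.19e-06). The A375 KD2 call rests on few reads, 73 to 308 MYC reads per KD2 library, and it was lost without any single control library (adjusted p = 0.0612 to 0.0687), under quantile normalization (adjusted p = 0.118) and with the trend with gene length removed (adjusted p = 0.0525). The mean effect of both hairpins was not found to differ between lines (limma F-test, adjusted p = 0.427), and the estimates differed by -0.19 ± 0.14 for A375 minus A2058 and by -0.13 ± 0.14 for SKMEL2 minus A2058. In the authors' deposited table for A2058, MYC has a log2 fold change of -0.56 with an SE of 0.22 and an adjusted p of 0.0531, so it does not pass there, while the authors' deposited tables for A375 and SKMEL2 give adjusted p-values of 0.00575 and 1.21e-10. Of the 10 members, an adjusted p under 0.05 stands in the authors' deposited tables for 4 in A2058 (23% of all genes listed there), 5 in A375 (24.7%), 6 in SKMEL2 (24.6%) and 5 over all lines (27.8%).

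MAX (ENSG00000125952, chr14:65006174-65102695, minus strand), the shared partner of MYC and of its antagonists, differed between the 2 hairpins in each line. In A2058 MAX had 3.28, 3.06 and 3.10 FPKM in KD1 and 6.72, 6.65 and 6.12 FPKM in KD2, against 5.61, 4.97 and 5.42 FPKM in the controls. All KD1 libraries thus lay below the controls and all KD2 libraries above them. The difference from control was -0.67 ± 0.06 with KD1 (adjusted p = 3.73e-06) and 0.26 ± 0.06 with KD2 (adjusted p = 0.00317). MAX was the 1 member called in opposite directions with the 2 hairpins of a line, as were 15.5% of genes in A2058, and no member was so called in A375 (3.35% of genes) or SKMEL2 (12.4%). In SKMEL2 MAX had 6.9996, 6.85 and 6.44 FPKM in KD1 and 8.00, 8.70 and 7.90 FPKM in KD2, against 10.2, 9.53 and 10.1 FPKM in the controls. There both groups lay below the controls, with -0.52 ± 0.05 for KD1 (adjusted p = 1.29e-05) and -0.26 ± 0.05 for KD2 (adjusted p = 0.00135). In A375 MAX had 6.78, 5.99 and 6.93 FPKM in KD1 and 12.2, 10.8 and 8.08 FPKM in KD2, against 8.47, 8.19 and 9.32 FPKM in the controls. Neither A375 difference passed (adjusted p = 0.0646 for KD1 and 0.239 for KD2), and without KD2 replicate 3, the library whose length trend is smaller, both did (adjusted p = 0.0116 and 0.0165). MAX shares 13.1% of its exonic bases with FNTB on the opposite strand, and the sources used here do not give whether counting used the strand.

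MXD1 (ENSG00000059728, chr2:69897688-69942945, plus strand), a repressor that replaces MYC on MAX as cells differentiate, rose most of the members. In A2058 MXD1 had 3.61, 2.99 and 2.73 FPKM in KD1 and 5.58, 5.59 and 5.63 FPKM in KD2, against 0.910, 0.985 and 0.930 FPKM in the controls. In A375 MXD1 had 6.62, 5.997 and 5.81 FPKM in KD1 and 7.61, 6.43 and 8.00 FPKM in KD2, against 2.81, 2.87 and 2.66 FPKM in the controls. In SKMEL2 MXD1 had 3.56, 3.89 and 3.51 FPKM in KD1 and 2.96, 2.71 and 2.53 FPKM in KD2, against 0.893, 0.977 and 0.980 FPKM in the controls. The groups did not overlap in any line. Relative to control the mean level of MXD1 was 3.30-fold with KD1 and 5.95-fold with KD2 in A2058, 2.21-fold and 2.64-fold in A375, and 3.84-fold and 2.88-fold in SKMEL2. KD2 had more MXD1 than KD1 in A2058 (KD1 minus KD2 of -0.76 ± 0.09, adjusted p = 1.75e-05) and less in SKMEL2 (0.36 ± 0.07, adjusted p = 0.00112). The A375 arms did not differ beyond the test (-0.24 ± 0.12, adjusted p = 0.145), although under quantile normalization and with the length trend removed they did (adjusted p = 0.0393 and 0.0369). In A2058 and SKMEL2 MXD1 passed the filter on low values (FPKM of 1 or more in 3 or more libraries of the line) through its knockdown libraries alone. The mean effect of both hairpins differed between lines (limma F-test, adjusted p = 0.000383, as for 61.1% of genes), and A375, whose controls held more MXD1, had a smaller log2 change than A2058 by -0.56 ± 0.10 (adjusted p = 0.000171, a contrast called for 47.9% of genes). SKMEL2 minus A2058 was -0.36 ± 0.10 (adjusted p = 0.0125, 27.5% of genes), and SKMEL2 minus A375 was 0.20 ± 0.10 (adjusted p = 0.124, 45.8% of genes).

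MXI1 (ENSG00000119950, chr10:110207605-110287365, plus strand), another MXD-type repressor, was the most abundant of the MAX-binding repressors in SKMEL2 and fell there with both hairpins. In SKMEL2 MXI1 had 16.1, 13.9 and 14.9 FPKM in KD1 and 14.9, 14.6 and 16.2 FPKM in KD2, against 28.4, 28.2 and 27.8 FPKM in the controls. The KD1 and KD2 differences in SKMEL2 were -0.89 ± 0.06 and -0.87 ± 0.06 (adjusted p = 7.99e-07 and 1.3e-06), and KD1 minus KD2 was -0.03 ± 0.06 (adjusted p = 0.666). In A2058 MXI1 had 7.27, 6.32 and 7.36 FPKM in KD1 and 4.29, 4.53 and 4.43 FPKM in KD2, against 10.2, 10.2 and 10.8 FPKM in the controls. Here KD2 went lower than KD1, with 42.5% of control left against 67.2% (KD1 minus KD2 of 0.60 ± 0.06, adjusted p = 7.32e-06). In A375 MXI1 had 6.37, 6.19 and 6.43 FPKM in KD1 and 2.42, 2.53 and 2.26 FPKM in KD2, against 6.14, 6.38 and 5.89 FPKM in the controls. KD1 overlapped the controls in A375 (0.04 ± 0.10, adjusted p = 0.767), while KD2 left 39.1% (-1.19 ± 0.10, adjusted p = 6.08e-05). The 1.24 ± 0.10 between these arms (adjusted p = 1.97e-05) was the largest difference between hairpins of any member in any line. The authors' deposited table for A375, which takes both hairpins together, gives MXI1 a log2 fold change of -0.50 with an SE of 0.39 and an adjusted p of 0.378.

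MXD4 (ENSG00000123933, chr4:2247432-2262109, minus strand) and MXD3 (ENSG00000213347, chr5:177301461-177312757, minus strand), further repressors of the MXD family, differed between the 2 hairpins, MXD3 not in the same direction in each line. MXD4 rose with KD1, to 4.31, 5.18 and 4.72 FPKM in A2058 KD1 and 2.81, 2.98 and 3.16 FPKM in KD2, against 3.23, 2.51 and 3.49 FPKM in the controls. In A375 MXD4 had 12.5, 12.7 and 14.2 FPKM in KD1 and 11.5, 9.15 and 7.0 FPKM in KD2, against 8.10, 7.92 and 8.05 FPKM in the controls. The KD1 difference of MXD4 was 0.56 ± 0.11 for A2058 (adjusted p = 0.000747), 0.68 ± 0.16 for A375 (adjusted p = 0.00642) and 0.15 ± 0.05 for SKMEL2 (adjusted p = 0.0263). The SKMEL2 call was lost without any 1 of 3 libraries and with the spread of all 27 libraries (adjusted p = 0.335). With KD2 MXD4 was not called in any of the 3 lines (adjusted p = 0.827, 0.419 and 0.434), and in A375 it was without KD2 replicate 3 (adjusted p = 0.0342). MXD3, which is expressed around S phase, was near the detection filter throughout, from 0.479 to 1.78 FPKM. Its lower KD1 level passed in A375 (-0.48 ± 0.18, adjusted p = 0.0445) and SKMEL2 (-0.62 ± 0.17, adjusted p = 0.00873), and its lower KD2 level passed in A2058 (-0.76 ± 0.15, adjusted p = 0.000949). The A375 call of MXD3 was lost without any 1 of 6 libraries. MXD3 shares 19.5% of its exonic bases with RAB24 on the same strand and 24.2% with PRELID1 on the other, so its reads are uncertain.

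MNT (ENSG00000070444, chr17:2384073-2401104, minus strand), the repressor present in growing and resting cells alike, changed little. Its level lay between 2.04 and 4.96 FPKM in all 27 libraries. It was lower with both hairpins in SKMEL2, where the groups did not overlap, with 2.24, 2.67 and 2.42 FPKM in KD1 and 2.32, 2.37 and 2.04 FPKM in KD2, against 2.99, 2.78 and 3.07 FPKM in the controls. The differences were -0.23 ± 0.07 for KD1 (adjusted p = 0.0202) and -0.33 ± 0.07 for KD2 (adjusted p = 0.0034), the KD1 call being lost without any 1 of 4 libraries. In A375 the KD2 difference was -0.35 ± 0.12 (adjusted p = 0.0351), a call lost with the length trend removed (adjusted p = 0.325) and without any 1 of 6 libraries. In A2058 neither difference of MNT passed (adjusted p = 0.237 for KD1 and 0.0647 for KD2).

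MGA (ENSG00000174197, chr15:41621134-41773081, plus strand), a very large protein that joins MAX to the Polycomb complex PRC1.6, was low in A375 knockdown cells. MGA had 1.24, 1.29 and 1.09 FPKM in A375 KD1 and 0.598, 0.604 and 1.43 FPKM in KD2, against 2.15, 2.58 and 1.61 FPKM in the controls. All 6 knockdown libraries lay below the 3 controls, with KD2 replicate 3 the highest of the 6. The mean effect in A375 was -0.78 ± 0.21 (adjusted p = 0.0115), and it was -0.56 (adjusted p = 0.00971) with the length trend removed and -0.65 (adjusted p = 0.0648) without control replicate 2. By hairpin, KD1 was not called in A375 (-0.60 ± 0.24, adjusted p = 0.0623) and KD2 was (-0.96 ± 0.24, adjusted p = 0.0104). With the length trend removed, KD1 was called as well (-0.51, adjusted p = 0.0301). With 20074 exonic bases MGA lies above the upper length quartile of 7456 bases in A375, and the 2 KD2 libraries with the length trend were the 2 lowest. In A2058 MGA was not called (-0.01 ± 0.06, adjusted p = 0.877), and in SKMEL2 its mean effect was -0.17 ± 0.07 (adjusted p = 0.0453), a call lost without any 1 of 8 libraries. By hairpin, MGA in SKMEL2 had -0.30 ± 0.08 for KD1 (adjusted p = 0.00672) and -0.05 ± 0.08 for KD2 (adjusted p = 0.627). That KD1 call was lost with the spread of all 27 libraries (adjusted p = 0.128). KD1 minus KD2 was -0.25 ± 0.08 there (adjusted p = 0.0155). This call was lost without any 1 of 3 libraries and with the spread of all 27 libraries (adjusted p = 0.198). The effect differed between lines (limma F-test, adjusted p = 0.00337), being more negative in A375 than in A2058 by -0.77 ± 0.19 (adjusted p = 0.00212).

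MLX (ENSG00000108788, chr17:42567072-42573239, plus strand), the MAX-like partner, was the most abundant member in A2058 and A375, and its knockdown effect took different directions in the lines. In A375 MLX had 37.1, 32.9 and 44.1 FPKM in KD1 and 60.1, 50.2 and 37.7 FPKM in KD2, against 27.1, 24.2 and 27.7 FPKM in the controls. Every A375 knockdown library exceeded the controls, and the mean effect was 0.69 ± 0.15 (adjusted p = 0.00467), 0.65 with the length trend removed (adjusted p = 0.00423) and 0.49 under quantile normalization (adjusted p = 0.00105). In SKMEL2 MLX had 15.3, 15.1 and 15.3 FPKM in KD1 and 14.6, 14.7 and 14.2 FPKM in KD2, against 15.8, 16.2 and 16.3 FPKM in the controls. These groups did not overlap either, and the mean effect was small and negative (-0.11 ± 0.03, adjusted p = 0.00484), a call lost with the spread of all 27 libraries (adjusted p = 0.377). In A2058 the levels of MLX were 22.6 to 24.3 FPKM in KD1 and 20.4 to 22.01 FPKM in KD2, against 21.1 to 22.1 FPKM in the controls. The A2058 KD1 difference of 0.12 ± 0.05 (adjusted p = 0.0295) turned to -0.04 (adjusted p = 0.441) under quantile normalization, so no direction is given for it. The lines differed in the effect on MLX (limma F-test, adjusted p = 7.88e-05), by 0.64 ± 0.14 for A375 minus A2058 (adjusted p = 0.000558) and by -0.81 ± 0.14 for SKMEL2 minus A375 (adjusted p = 6.56e-05). MLX shares 18.2% of its exonic bases with PSMC3IP on the opposite strand.

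MLXIP (ENSG00000175727, chr12:122078756-122147344, plus strand), the sugar-sensing partner of MLX, fell in all 6 knockdown groups. In A2058 MLXIP had 3.37, 3.79 and 3.88 FPKM in KD1 and 3.30, 3.71 and 3.41 FPKM in KD2, against 6.84, 6.47 and 6.17 FPKM in the controls. In A375 MLXIP had 2.96, 2.46 and 3.21 FPKM in KD1 and 2.49, 2.37 and 2.29 FPKM in KD2, against 4.59, 4.88 and 5.54 FPKM in the controls. In SKMEL2 MLXIP had 8.28, 9.43 and 8.86 FPKM in KD1 and 6.99, 7.87 and 7.50 FPKM in KD2, against 14.7, 14.5 and 16.5 FPKM in the controls. No knockdown library of a line overlapped its controls, and the knockdown groups kept 47.7% to 58.2% of control. The mean effects were -0.78 ± 0.06 for A2058 (adjusted p = 1.08e-06), -0.82 ± 0.11 for A375 (adjusted p = 0.000445) and -0.87 ± 0.06 for SKMEL2 (adjusted p = 1.38e-06). They were not found to differ between lines (limma F-test, adjusted p = 0.757), with -0.04 ± 0.10 for A375 minus A2058 and -0.09 ± 0.10 for SKMEL2 minus A2058. KD1 minus KD2 was 0.23 ± 0.07 in SKMEL2, where it passed (adjusted p = 0.0101), and 0.07 ± 0.07 in A2058 and 0.22 ± 0.13 in A375, where it did not (adjusted p = 0.366 and 0.211). In the authors' deposited table over all lines MLXIP has the smallest adjusted p of the members, 1.86e-42, with a log2 fold change of -0.90.

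**Figure D2:**
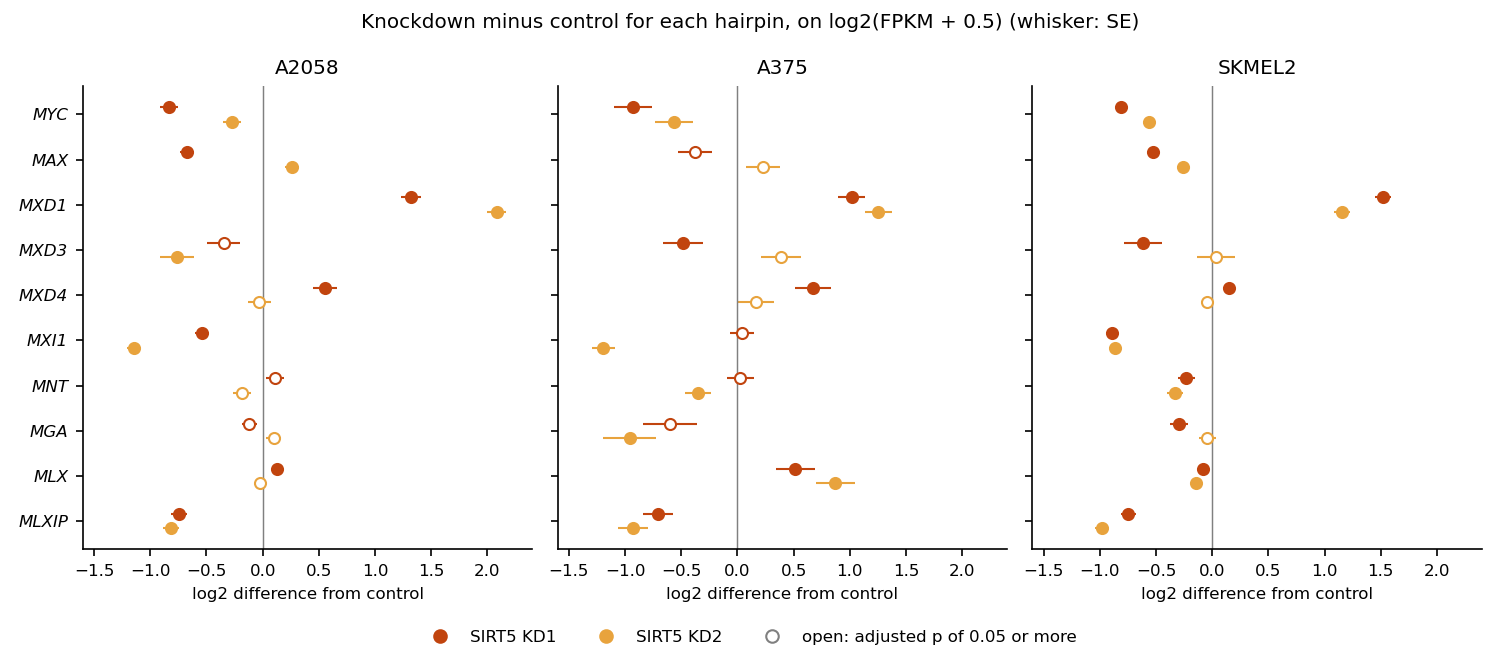
Difference of each SIRT5 hairpin from control on log2(FPKM + 0.5) with its SE for the 10 network genes in A2058, A375 and SKMEL2, filled where limma's adjusted p is under 0.05. MXD1 lies right of 0 and MYC and MLXIP left of 0 for both hairpins in each line, while MXI1 with KD1 in A375 lies at 0.04.

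The 2 hairpins were also compared directly. KD1 minus KD2 was called for 9 of 10 members in A2058 (background 72.3%), 5 in A375 (38.1%) and 7 in SKMEL2 (68.5%). MAX lay lower in KD1 than in KD2 in each line, by -0.94 ± 0.06 for A2058 (adjusted p = 2.57e-07), -0.60 ± 0.15 for A375 (adjusted p = 0.0104) and -0.26 ± 0.05 for SKMEL2 (adjusted p = 0.00131). MYC lay lower in KD1 by -0.56 ± 0.08 for A2058 (adjusted p = 9.71e-05) and -0.25 ± 0.04 for SKMEL2 (adjusted p = 0.000627). MXD4 was higher in KD1 in each line, by 0.59 ± 0.11 for A2058 (adjusted p = 0.000506), 0.51 ± 0.16 for A375 (adjusted p = 0.0294) and 0.20 ± 0.05 for SKMEL2 (adjusted p = 0.00663). The A375 call of MXD4 was lost with the length trend removed (adjusted p = 0.113) and without any 1 of 4 libraries. With the spread of all 27 libraries the SKMEL2 calls of MYC and MXD4 were lost (adjusted p = 0.0731 and 0.19). Between the hairpins SIRT5 was lower in KD1, by the tests for A2058 and SKMEL2, at 8.44% and 7.01% of control in KD1 and at 20.04% and 19.98% in KD2, and the part of this in the hairpin differences of the members was not tested.

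Of the RNA of the MAX-binding repressors, MXD1 made up a larger share and MXI1 a smaller one in all 6 knockdown groups, described here by ratios of FPKM with no test. Summed over MXD1, MXD3, MXD4, MXI1 and MNT (ENSG00000070444, chr17:2384073-2401104, minus strand), the repressors stood at 19.1 ± 0.109 FPKM in KD1 and 16.2 ± 0.407 FPKM in KD2, against 18.8 ± 0.845 FPKM in the controls of A2058 (SD, n = 3 each). MXD1 made up 16.3% ± 2.47 of that sum in KD1 and 34.6% ± 0.735 in KD2, against 5.03% ± 0.393 in the A2058 controls. In A375 the MXD1 share was 19.9% ± 1.45 in KD1 and 30.9% ± 5.12 in KD2, against 12.3% ± 0.509 in the controls. In SKMEL2 it was 14.2% ± 1.32 in KD1 and 10.9% ± 1.02 in KD2, against 2.56% ± 0.121 in the controls. The MXI1 share moved the other way in each line, in SKMEL2 to 57.8% ± 2.11 in KD1 and 60.5% ± 2.05 in KD2, against 75.9% ± 1.18 in the controls. For A375 the MXI1 share was 20.5% ± 0.220 in KD1 and 10.1% ± 1.03 in KD2, against 27.3% ± 1.13 in the controls. With KD1 there, MXI1 itself stood at 103% of control, while the repressor sum was 30.8 ± 0.923 FPKM against 22.5 ± 0.0394 FPKM. The repressor sum relative to MYC was 4.27 ± 0.279 in KD1 and 2.39 ± 0.310 in KD2, against 2.25 ± 0.0577 in the controls of A2058. In A375 this ratio was 16.6 ± 3.66 in KD1 and 9.44 ± 1.90 in KD2, against 5.57 ± 0.166 in the controls. In SKMEL2 it was 2.96 ± 0.264 in KD1 and 2.39 ± 0.0711 in KD2, against 2.36 ± 0.0818 in the controls. Both A375 groups thus had more repressor RNA per MYC RNA, as did KD1 in A2058 and SKMEL2, whereas KD2 in those lines lay within 1 SD of the ratio's spread among KD2 libraries from its control mean. The ratio of MLX to MLXIP was higher in all 6 knockdown groups, for example 1.72 ± 0.123 in KD1 and 1.95 ± 0.116 in KD2, against 1.06 ± 0.0641 in the controls of SKMEL2.

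**Figure D3:**
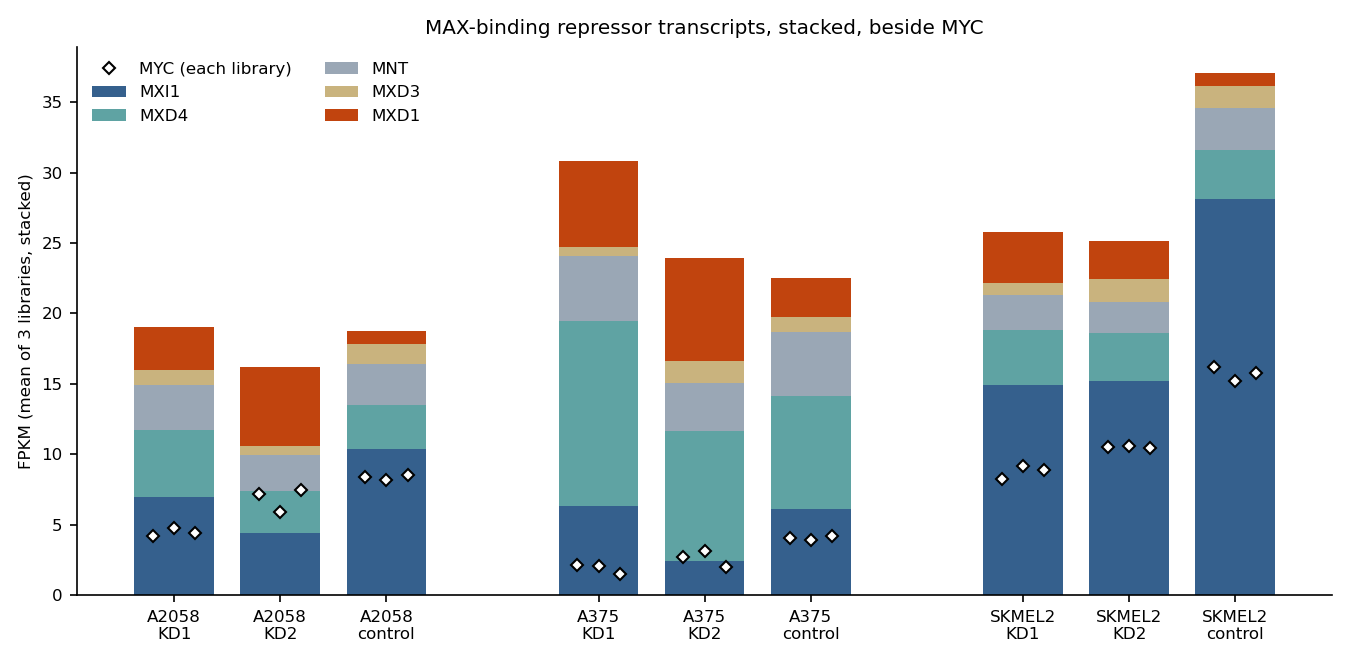
Mean FPKM of the 5 MAX-binding repressors, stacked, in KD1, KD2 and control of each line (mean of 3 libraries), with MYC in each library as a diamond on the same axis. The MXD1 segment is wider in both knockdown groups than in the control of each line, and in SKMEL2 the whole stack is lower, 25.8 FPKM in KD1 and 25.2 FPKM in KD2 against 37.1 FPKM in the control.

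Control cells of the 3 lines differed in the network's levels, for 9 of 10 members by limma's F-test (background 88.6%), with MXD3 the exception (adjusted p = 0.0806). Control MYC was 15.7 ± 0.485 FPKM in SKMEL2, 8.35 ± 0.182 FPKM in A2058 and 4.05 ± 0.127 FPKM in A375 (SD, n = 3 each). Each step of that order passed, with 0.87 ± 0.11 for SKMEL2 minus A2058 (adjusted p = 3.94e-07) and -0.96 ± 0.11 for A375 minus A2058 (adjusted p = 9.34e-08). MXI1 and MLXIP followed the same order of lines, MXI1 with 28.1 ± 0.308, 10.4 ± 0.326 and 6.14 ± 0.245 FPKM and MLXIP with 15.2 ± 1.09, 6.49 ± 0.334 and 5.002 ± 0.488 FPKM. MLX had the reverse order, 26.3 ± 1.88 FPKM in A375, 21.5 ± 0.495 FPKM in A2058 and 16.1 ± 0.242 FPKM in SKMEL2. MXD1, MXD4 and MNT were highest in A375 and did not differ between SKMEL2 and A2058 beyond the test (adjusted p = 0.94, 0.228 and 0.892). MAX did not differ between SKMEL2 and A375 (adjusted p = 0.0843), and A2058 had the least. MGA differed between SKMEL2 and A375 (0.60 ± 0.15, adjusted p = 0.00144) and neither line differed from A2058 beyond the test (adjusted p = 0.0797 and 0.096). These pairwise contrasts of controls called 70.7% of all genes for A375 minus A2058, 69.2% for SKMEL2 minus A2058 and 73% for SKMEL2 minus A375. Each line was a separate experiment, so in these contrasts the line and its sequencing run cannot be told apart. The A375 libraries also had the lowest depth. Within the control cells MXI1 was the highest member in SKMEL2, and MLX was the highest in A2058 and A375.

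The relatives of the network that are not members were low. MYCN did not exceed 0.325 FPKM in any library and was at 0 in the 3 controls of A2058. MYCL had 0.146 ± 0.0186 FPKM in KD1 and 0.174 ± 0.0606 FPKM in KD2, against 0.606 ± 0.0726 FPKM in the controls of A2058, and 0.247 ± 0.0717 FPKM in KD1 and 0.281 ± 0.0518 FPKM in KD2, against 0.504 ± 0.0581 FPKM in the controls of SKMEL2. In A375 MYCL lay the other way, with 0.259 ± 0.0123 FPKM in KD1 and 0.333 ± 0.119 FPKM in KD2, against 0.183 ± 0.072 FPKM in the controls. MLXIPL, the liver relative of MLXIP, did not exceed 0.396 FPKM in any library. These genes were below the filter and were not tested.

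By a fixed rule, the 3 genes most like a member were those with the highest Pearson r of line-centred log2(FPKM + 0.5) over the 27 libraries, among 10031 genes with a mean FPKM of at least 1 in each line. The libraries share their controls and their depth, so r is a description. For MYC they were PDE10A (r = 0.93), SLC9A3R2 and GOSR1 (r = 0.93 and 0.92). For MXD1 they were ATG14 (r = 0.97), which encodes a subunit of the autophagy lipid kinase complex, the Hippo pathway kinase gene LATS2 (r = 0.97) and ENTPD7 (r = 0.97). For MXI1 they were LDHA (r = 0.94), the muscle-type lactate dehydrogenase gene, CNNM3 and RDH11. For MLXIP they included the nuclear pore gene POM121 (r = 0.96) and the Mediator kinase module gene MED12 (r = 0.94). For MAX they were ASCC2, TRIM62 and PCBD1 (r = 0.95, 0.94 and 0.94).

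Over the 3 lines, genes that MYC is known to activate were mostly lower in knockdown cells. Of 62 such genes, all tested over the lines, 38 fell, 11 rose and 13 did not pass, with a median of -0.26, against 32% lower, 32% higher and a median of -0.002 over all genes. The largest changes were in PA2G4, a growth-regulated gene of ribosome assembly (-1.52 ± 0.05, adjusted p = 3.82e-17), the nucleolar gene NOLC1 (-1.33 ± 0.04, adjusted p = 4.56e-17), MYBBP1A, also nucleolar (-1.04 ± 0.05, adjusted p = 2.49e-14), and the mitochondrial chaperone gene HSPD1 (-0.84 ± 0.09, adjusted p = 2.29e-08). PA2G4, NOLC1 and MYBBP1A were lower with both hairpins in each line, MYBBP1A by -1.42, -1.67 and -1.18 with KD1 and by -0.90, -0.48 and -0.61 with KD2 in A2058, A375 and SKMEL2. Against that direction, ODC1, the first enzyme of polyamine synthesis and a textbook MYC target, rose (0.71, adjusted p = 1.59e-11), as did the cyclin-dependent kinase gene CDK4 (0.36, adjusted p = 6.59e-05). Under quantile normalization 7 genes of the list rose and 40 fell. By line, 32 of 61 of the tested MYC-activated genes fell and 17 rose in A2058, where 4444 of all 12797 genes fell and 4429 rose. In A375 29 of 62 fell and 3 rose, where 2740 of 12629 genes fell and 3314 rose, and in SKMEL2 30 of 61 fell and 12 rose, where 4498 of 13899 genes fell and 4572 rose. With KD1, 23 fell and 21 rose in A2058, 34 fell and 2 rose in A375, and 30 fell and 14 rose in SKMEL2. With KD2, 31 fell and 17 rose in A2058, 22 fell and 1 rose in A375, and 31 fell and 11 rose in SKMEL2. Over all genes of A2058, 4080 fell and 4946 rose with KD1, and 4757 fell and 4229 rose with KD2. Over all genes of A375, 2505 fell and 3362 rose with KD1, and 2635 fell and 2848 rose with KD2. Over all genes of SKMEL2, 4565 fell and 4832 rose with KD1, and 4319 fell and 4469 rose with KD2. With KD1 in A2058 the list thus split almost evenly, with a median of -0.06 against 0.04 over all genes.

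Of 7 genes that MYC is known to repress, 4 rose and 1 fell over the lines, where 32% of all genes rose and 32% fell. With KD1, 5 rose and 1 fell in A2058, 5 and 1 of 6 in A375, and 5 and 2 in SKMEL2. With KD2, 3 rose and 3 fell in A2058, 2 and 2 of 6 in A375, and 3 and 3 in SKMEL2. The list medians were 1.10, 1.075 and 0.43 with KD1 and -0.14, 0.27 and 0.007 with KD2, in the same order. Counts over all genes by hairpin are those given for the MYC-activated genes. Whether the list differs between hairpins was not tested. The cyclin-dependent kinase inhibitor genes CDKN2B (0.83 ± 0.04, adjusted p = 1.3e-14) and CDKN1B (0.80 ± 0.04, adjusted p = 1e-12) and the stress gene NDRG1 (0.80 ± 0.05, adjusted p = 3e-11) rose, and the stress sensor gene GADD45A fell (-0.39 ± 0.05, adjusted p = 8.36e-07). CDKN2B did not pass the filter in A375. CDKN1B was higher in each line's own fit, by 0.50, 1.20 and 0.71 in A2058, A375 and SKMEL2. NDRG1 stood at 1.10 with KD1 and 0.45 with KD2 in A2058, at 2.23 and 0.24 in A375 and at 0.68 and 0.12 in SKMEL2, and the difference between hairpins was not tested. GADD45A was lower in A2058 and A375 (-0.92 and -0.48) and higher in SKMEL2 (0.22, adjusted p = 0.0163). The fourth gene that rose, CDKN1C, stood at 0.18 over the lines (adjusted p = 0.0141), with 0.81 in A2058, 0.71 in A375 and -0.99 in SKMEL2. CDKN1A was not called over the lines (0.07, adjusted p = 0.37) and was called in opposite directions with the hairpins of each line, with 1.83 for KD1 and -1.67 for KD2 in A2058, 1.28 and -1.37 in A375, and 0.91 and -0.57 in SKMEL2.

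Of 5 targets of the MLX and MLXIP dimer, 4 fell and 1 rose over the lines, where 32% of all genes fell and 32% rose. By line 2 fell and 2 rose in A2058, where 4444 of all 12797 genes fell and 4429 rose. In A375 4 fell and 1 rose, where 2740 of 12629 genes fell and 3314 rose. In SKMEL2 1 fell and 1 rose, where 4498 of 13899 genes fell and 4572 rose. Whether the counts of these 5 genes differ between lines was not tested. TXNIP, an inhibitor of glucose uptake and the best known MLXIP target, fell (-0.90 ± 0.09, adjusted p = 9.21e-09). Its relative ARRDC4 (-0.34 ± 0.07, adjusted p = 0.000171) and the transcription factor gene KLF10 (-0.42 ± 0.05, adjusted p = 8.54e-08) fell over the lines as well. TXNIP was lower in each line's own fit, by -0.46, -1.50 and -0.74 in A2058, A375 and SKMEL2. ARRDC4 was -1.32 in A375 and 0.41 for SKMEL2 (adjusted p = 0.000169 and 0.00154), so its value over the lines averages effects of opposite sign. PFKFB3, which makes the activator of glycolysis fructose bisphosphate, rose (0.48 ± 0.04, adjusted p = 7.44e-10), with 0.57 in A2058 and 0.97 in A375, and stood at -0.10 in SKMEL2 (adjusted p = 0.168). KLF10 was -0.32 in A2058, -0.97 in A375 and 0.04 in SKMEL2 (adjusted p = 0.361). HK2, the hexokinase gene, stood at -0.15 over the lines (adjusted p = 0.0082), at 0.42 in A2058, -0.93 in A375 and 0.06 in SKMEL2.

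The cofactors of the network moved in both directions, and their counts are to be read against the 64.1% of all genes called over the lines, 32% each way. Of 15 genes of the SIN3 and histone deacetylase corepressor, through which the MXD proteins act, 7 fell and 5 rose, with SAP130 (-0.57 ± 0.05, adjusted p = 9.25e-10), SAP30 (-0.46 ± 0.05, adjusted p = 1.4e-07) and HDAC2 (-0.45 ± 0.07, adjusted p = 1.12e-05) lower and BRMS1 (0.51 ± 0.07, adjusted p = 1.91e-06) higher. Of 13 genes of the PRC1.6 complex of MGA, 7 fell and 4 rose. Among these L3MBTL2 (0.62 ± 0.06) and RING1 (0.41 ± 0.05) rose, and RYBP (-0.50 ± 0.08) and the histone methyltransferase gene EHMT2 (-0.42 ± 0.05) fell. Of 18 coactivators and partners of MYC, 6 fell and 4 rose, and 8 did not pass. The elongation kinase gene CDK9 (-0.66 ± 0.05, adjusted p = 6.76e-11), HCFC1 (-0.46 ± 0.05) and the acetyltransferase gene EP300 (-0.44 ± 0.04) fell, and PAF1, of the elongation complex that bears its name, rose (0.57 ± 0.03, adjusted p = 1.89e-12). The count that rose was 7 without A375 KD2 replicate 3.

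All 18 genes that act on the stability of the MYC protein were called over the lines, 11 higher and 7 lower, where 64.1% of all genes were called, 32% each way. By line 11 rose and 5 fell in A2058, where 4429 of all 12797 genes rose and 4444 fell. In A375 6 rose and 7 fell, where 3314 of 12629 genes rose and 2740 fell. In SKMEL2 10 rose and 4 fell, where 4572 of 13899 genes rose and 4498 fell. FBXW7, which marks phosphorylated MYC for degradation, rose by 0.77 ± 0.07 (adjusted p = 1.27e-09), with 0.84 in A2058, 0.46 for A375 (adjusted p = 0.0654) and 1.03 in SKMEL2. The ubiquitin ligase genes FBXO32 (0.66 ± 0.03) and STUB1 (0.62 ± 0.06) rose over the lines, FBXO32 with 1.40 in A375 and -0.11 for SKMEL2 (adjusted p = 0.0713). AURKA, a mitotic kinase that holds MYC family proteins back from degradation, fell (-0.95 ± 0.05, adjusted p = 4.23e-13), by -1.54 in A2058, -0.93 in A375 and -0.39 in SKMEL2. The list holds genes that stabilize MYC and genes that destabilize it, and the amount of MYC protein was not measured here.

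**Figure D4:**
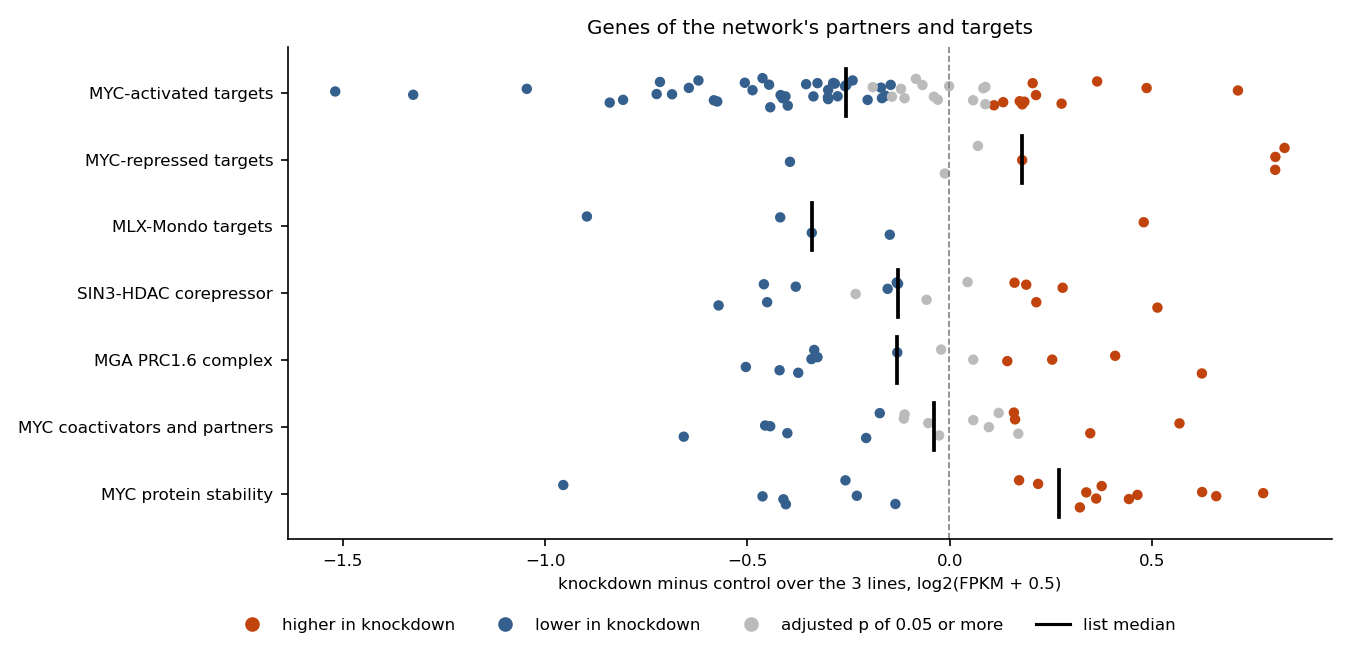
Knockdown minus control over the 3 lines on log2(FPKM + 0.5) for each gene of the 7 lists of targets and cofactors (points), coloured by the limma call, with the list median (black bar) and the median of all genes (dashed line). Most MYC-activated targets lie left of 0 with their median at -0.26, and the median of the MYC-repressed targets lies at 0.18.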

How the data were processed

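RNA of 27 libraries (9 per line, in 3 groups of 3) was measured. The submitters' processing notes name Trimmomatic 0.39, FastQC 0.11.9 and MultiQC 1.9, alignment to GRCh38 by STAR 2.7.3a, counting by featureCounts (Subread 2.0.0) and testing by DESeq2 1.28.1. Their design text says that a raw file of replicate 2 of the A375 controls was truncated. The authors deposited FPKM per gene and library, and DESeq2 tables of base mean (a normalised signal), log2 fold change with SE, and adjusted p-value. FPKM over its gene mean, multiplied by the deposited base mean, gave whole reads (within 0.05) for 100% of values, which served for depth and for limma-voom.

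Here limma 3.58.1 (R 4.3.3), with a variance trend, was fitted to log2(FPKM + 0.5) of genes with FPKM ≥ 1 in 3 or more libraries, per line and over all libraries in 9 groups, with Benjamini-Hochberg adjustment over all genes. The fits were tested on simulated data. The text names all members and up to 4 called genes of largest change per list. ODC1, CDK4, CDKN1A, CDKN1C and HK2 were chosen after their values were seen. Members and lists were chosen with earlier results of these data known. Replicates differed by more than sampling noise. Identity between the MXD proteins was not analysed here. A further gene like MLXIP is not reported here.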

Additional observations from a re-analysis of the deposited data

Results flagged for a closer look

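The knockdown effect, the mean of both hairpins minus control, differed between the 3 lines for 4 members by limma's F-test with Benjamini-Hochberg adjustment, where 61.1% of all genes tested did. MXD1 rose in each line, by 1.70 in A2058, 1.14 in A375 and 1.34 in SKMEL2 (adjusted p = 0.000383 for the difference). The mean effect on MXI1 was -0.85, -0.58 and -0.88 in the same order (adjusted p = 0.00374), and in A375 it averages 0.04 with KD1, which was not called, and -1.19 with KD2. MGA fell in A375, with -0.78, and had -0.01 in A2058 and -0.17 in SKMEL2 (adjusted p = 0.00337). MLX had 0.05 in A2058, rose in A375 with 0.69 and fell in SKMEL2 with -0.11 (adjusted p = 7.88e-05). In A375 the libraries KD2 replicates 1 and 2 had the strongest length trend and the lowest MGA and highest MLX levels, and the part of that trend in the differences between lines was tested only by removing it, after which the F-test called 4 members. The groups hold 3 libraries each, so single libraries were not tested for standing apart within them, except in the 6 knockdown libraries of a line pooled, where none did among 30 groups tested. Such a pool holds both hairpins, and a difference between them widens its spread. A single library that stands apart could thus be missed, and no conclusion is drawn from this test.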

How the results depend on the processing

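Over the lines, all 10 members stayed called with the same sign under every alternative tried: other pseudocounts, no filter, quantile normalization, no variance trend, a replicate block, limma-voom, each of 27 libraries left out, and the removal of the trend with gene length, the last chosen after seeing the data. In the authors' deposited DESeq2 table over all lines, MAX, MXD3, MXD4, MNT and MLX do not pass. Their adjusted p-values there are 0.315, 0.158, 0.054, 0.0927 and 0.138, in that order. Within lines the small effects moved. Under quantile normalization MLX turned to -0.0394 (KD1 against control) and -0.0223 (KD1 against KD2) in A2058. Of the comparisons by count, KD1 against KD2 in A375 called 5 members, 9 with the spread of all 27 libraries and 3 to 8 when single libraries were left out, and the same comparison in SKMEL2 called 7, and 4 with the spread of all 27 libraries. The replicate block gave 3 members for KD1 against KD2 in A375 and changed no other count by over 1.5 times. The numbers do not pair the samples, since same-numbered libraries correlated at -0.53 to 0.33 in A375 and within -0.04 to 0.05 in the other lines. The F-test between lines called 4 members, 6 under quantile normalization and 3 with limma-voom. A375 had the lowest depth. The causes of these changes were not tested.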
